A study of Homo sapiens with 4 samples.

Results

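Antisense RNAs are transcripts made from the strand opposite to a named gene, and the gene symbol before the suffix AS names that sense partner. Expressed antisense RNAs were taken as the rows of the IWP2 experiment's expression table whose symbol ended in -AS and a number and that reached 1 FPKM (a read level corrected for transcript length and library size, the unit taken here since the sample labels name none) in at least 2 of the 4 samples. This rule kept 210 of 1251 such rows, against 14278 of all 58365 rows of the table past the same level. Of the other antisense rows, 451 were listed at 0 in every sample and 590 stayed under the rule. The members were thus chosen by their FPKM values in these samples, so their levels are a description.

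The samples were H1 cells, an established human embryonic stem cell line, at day 2 of differentiation toward blood in Custom mTeSR1 medium with activinA at 40 ng/ml and BMP4 at 50 ng/ml as the sample labels give them. The study's methods give these doses the other way round. Duplicate samples labelled DMSO, the solvent control, were compared with duplicates labelled IWP2, a small molecule that blocks Porcupine, the enzyme that attaches the lipid Wnt proteins need for secretion, and the IWP2 dose was not given in the labels. Both groups therefore received the same activinA and BMP4 and differed in IWP2 alone, as far as the labels say. All samples came from 1 cell line, and nothing stated that the 2 samples of a group were separate differentiations, so p-values measure only the spread between these samples, which may be technical.

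Antisense transcripts can start beside the promoter of their partner and run away from it, start inside it, or meet it tail to tail. Some are known to hold the chromatin or the transcription of a neighbour in a given state, some carry small nucleolar RNAs in their introns, and for many no role is known. At the stage studied, Wnt signals drive pluripotent cells into primitive streak and mesoderm, and several of the transcription factors of that step have an antisense RNA at their own promoter.

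Markers placed the samples as labelled, with the groups far apart. All 11 primitive streak and mesoderm markers measured fell in IWP2, and their summed level lay between 1218 and 1556 FPKM in DMSO and between 154 and 177 FPKM in IWP2. Of 7 pluripotency markers 4 rose, among them SOX2, which stood at 0.193 and 0.174 FPKM in DMSO and at 35.6 and 36.1 FPKM in IWP2. Of 7 Wnt response genes 5 fell. Definitive endoderm markers also moved, with 4 of 5 tested lower, as did amnion and trophoblast markers, with 3 higher and 1 lower of 5 tested, and endothelium and blood markers, with 2 lower of 3 tested. The 5 neural ectoderm markers were under the level rule, and PTPRC, a defining marker of blood cells, was at 0 in 3 samples and at 0.00906 FPKM in the fourth. Of all rows tested, 7.23% were called higher and 8.99% lower in IWP2 by the test given below. Some markers passed the level rule through 1 group alone and so had to differ. Through DMSO alone passed MESP1, MESP2, GSC, SP5, LEF1, FOXA2, HHEX, CDX2 and RUNX1, and through IWP2 alone SOX2, GABRP and KRT7. The part these shifts in cell type play in the antisense results was not tested, and in such bulk samples fewer cells of a type and less RNA per cell cannot be told apart.

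Most expressed antisense RNAs were weakly expressed. The median of their mean level was 2.52 FPKM, against 9.90 FPKM over all rows past the rule, and means ran from 0.677 to 575 FPKM. The mean was under 2 FPKM for 88 members, from 2 to 5 FPKM for 65, from 5 to 10 FPKM for 30, from 10 to 50 FPKM for 25 and above 50 FPKM for 2. The rule was met in all 4 samples by 151 members, in both DMSO samples alone by 11, in both IWP2 samples alone by 8 and in another mix by 40. The members just inside the rule were TMEM44-AS1, SH3BP5-AS1 and ZBTB11-AS1, whose second highest values were 1.01, 1.01 and 1.02 FPKM. Just outside were USP46-AS1, CA3-AS1 and SPRY4-AS1, at 0.993, 0.993 and 0.985 FPKM. GENCODE 29, a public gene annotation, classed 142 members as antisense, 30 as processed transcripts, 25 as long intergenic RNAs and 3 as RNAs of a bidirectional promoter. It listed 2, NCBP2-AS2 and MMP24-AS1, as protein coding.

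Of the 210 antisense RNAs, 7 were higher and 21 lower in IWP2 by limma on log2(FPKM + 1), with Benjamini-Hochberg adjustment over all 14278 rows and a threshold of 0.05. This is 3.33% higher and 10% lower, beside a background of 7.23% and 8.99% of all rows in the same fit, or 13.3% called in either direction against 16.2%. The share called was thus below the background for increases and close to it for decreases. The median log2 fold change was 0.04 over the members and -0.02 over all rows, and the median size without sign was 0.218 and 0.217. The standard error of a member's change was wider, at a median of 0.182 against 0.139. DMSO and IWP2 values overlapped for 101 members, while both DMSO values were above both IWP2 values for 53 and below them for 56. For all rows the shares were 32% with DMSO above and 28.1% with IWP2 above. Members that reached the rule in 1 group alone had to differ, and they held 6 of the 21 decreases and 2 of the 7 increases. HOXB-AS1 and TRG-AS1 were among these decreases. The count of called members depended on each library, at 19 without DMSO replicate 1, 11 without DMSO replicate 2, 8 without IWP2 replicate 1 and 6 without IWP2 replicate 2. Of the 28, 6 were called whichever library was left out, namely GATA6-AS1, HAS2-AS1, WNT5A-AS1, FOXD3-AS1, HOXB-AS1 and TRG-AS1, and 8 were lost whichever was left out.

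**Figure D1:**
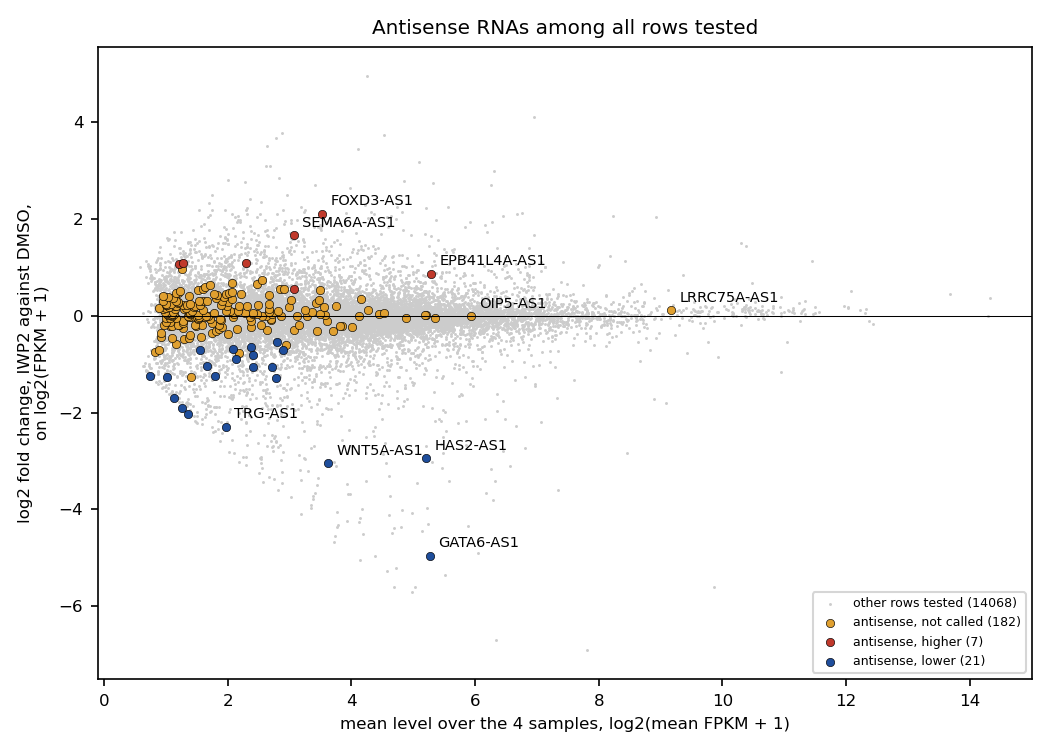
Mean level over the 4 samples as log2(mean FPKM + 1) on the x axis against the log2 fold change of IWP2 over DMSO on the y axis. Grey points are other rows tested and coloured points the 210 antisense RNAs; 7 lie among the increases, 21 among the decreases, and GATA6-AS1 sits lowest of them at -4.96.

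The largest decrease was in GATA6-AS1 (ENSG00000266010.1, GRCh38 chr18:22166898-22168968, minus strand), which lies head to head with GATA6, a transcription factor of endoderm and early mesoderm. GATA6-AS1 stood at 67.2 and 79.6 FPKM in DMSO and at 1.75 and 1.07 FPKM in IWP2, or 73.4 ± 8.72 against 1.41 ± 0.477 FPKM (SD, n = 2). Both DMSO values were far above both IWP2 values. The log2 fold change was -4.96 (SE 0.18, adjusted p = 0.00022 in limma), 31.1-fold lower on the log2(FPKM + 1) scale, which understates changes of low values. GATA6 itself went from 119 and 134 FPKM to 3.52 and 3.01 FPKM, a log2 fold change of -4.90 (SE 0.12, adjusted p = 0.000152 in limma). The spans of the pair do not overlap in the table and their starts lie 475 bases apart.

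WNT5A-AS1 (ENSG00000244586.1, GRCh38 chr3:55487699-55488308, plus strand) lies inside the span of WNT5A, a Wnt ligand that signals mainly without beta-catenin. It stood at 21.6 and 20.5 FPKM in DMSO and 1.96 and 1.40 FPKM in IWP2, and fell by 3.05 on the log2 scale (SE 0.15, adjusted p = 0.000502 in limma). WNT5A went from 60.1 and 82.4 to 2.45 and 2.82 FPKM, a log2 fold change of -4.30 (SE 0.17). The fold of the sense gene was larger, and the antisense level in IWP2 came within 1 FPKM of the sense level in replicate 1. The table holds a second, shorter row named WNT5A, which was listed at 0 in 3 samples and at 0.911 FPKM in DMSO replicate 2.

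HAS2-AS1 (ENSG00000248690.6, GRCh38 chr8:121639293-121644693, plus strand) overlaps the first part of HAS2, which makes the matrix sugar hyaluronan. Its values were 69.1 and 59.4 FPKM in DMSO and 6.92 and 8.06 FPKM in IWP2, a fall of 2.94 on the log2 scale (SE 0.12, adjusted p = 0.000326 in limma). HAS2 went from 150 and 153 to 21.3 and 20.9 FPKM. In IWP2 HAS2-AS1 was still above the median level of the antisense RNAs, unlike GATA6-AS1 and WNT5A-AS1.

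FOXD3-AS1 (ENSG00000230798.5, GRCh38 chr1:63320884-63324441, minus strand) had the largest increase. Its partner FOXD3 is a transcription factor of pluripotent cells and neural crest. FOXD3-AS1 stood at 2.67 and 4.07 FPKM in DMSO and at 16.3 and 19.0 FPKM in IWP2, 4.31-fold higher on the log2(FPKM + 1) scale (log2 fold change 2.11, SE 0.19, adjusted p = 0.003 in limma). FOXD3 went from 0.0238 and 0.0805 to 3.66 and 3.87 FPKM. The antisense RNA was the more abundant member of this pair in all 4 samples. In DMSO FOXD3 was near 0 while FOXD3-AS1 was above 2 FPKM.

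The promoter windows of 3 of these pairs, GATA6, WNT5A and FOXD3, are shown because sense and antisense moved together and start close to each other. The HAS2 pair, for which windows of both partners were not found, is not shown. Each window runs from 250 bases before to 50 after the RefSeq start on GRCh38.p14, 5′ to 3′ on the strand of its own transcript, and capitals mark a match to the TCF/LEF word CTTTGAA, its variant CTTTGAT, the further word CTTTGTA or its variant CTTTGTT on either strand. TCF and LEF proteins are the DNA-binding partners of beta-catenin in the Wnt pathway. RefSeq places some of these starts at other positions than the rows of the table.
GATA6-AS1, chr18:22168919-22169218, minus strand: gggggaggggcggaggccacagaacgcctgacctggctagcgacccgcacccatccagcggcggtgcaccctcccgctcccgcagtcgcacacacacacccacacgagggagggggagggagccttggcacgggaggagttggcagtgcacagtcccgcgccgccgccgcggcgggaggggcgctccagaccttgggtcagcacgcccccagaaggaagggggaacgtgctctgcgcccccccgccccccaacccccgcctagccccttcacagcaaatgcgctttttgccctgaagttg
GATA6, chr18:22169339-22169638, plus strand: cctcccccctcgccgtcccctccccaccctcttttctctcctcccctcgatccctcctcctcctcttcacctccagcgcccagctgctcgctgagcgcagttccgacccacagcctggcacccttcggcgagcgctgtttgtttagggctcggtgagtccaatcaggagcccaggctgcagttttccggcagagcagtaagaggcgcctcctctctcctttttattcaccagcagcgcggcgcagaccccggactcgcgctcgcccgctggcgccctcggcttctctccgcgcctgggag
WNT5A-AS1, chr3:55487368-55487667, plus strand: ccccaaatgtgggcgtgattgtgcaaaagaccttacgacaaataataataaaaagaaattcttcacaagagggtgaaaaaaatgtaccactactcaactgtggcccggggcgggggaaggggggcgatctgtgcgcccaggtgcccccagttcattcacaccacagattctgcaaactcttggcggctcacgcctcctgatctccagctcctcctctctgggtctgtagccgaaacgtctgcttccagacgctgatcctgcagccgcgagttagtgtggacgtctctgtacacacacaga
WNT5A, chr3:55487257-55487556, minus strand: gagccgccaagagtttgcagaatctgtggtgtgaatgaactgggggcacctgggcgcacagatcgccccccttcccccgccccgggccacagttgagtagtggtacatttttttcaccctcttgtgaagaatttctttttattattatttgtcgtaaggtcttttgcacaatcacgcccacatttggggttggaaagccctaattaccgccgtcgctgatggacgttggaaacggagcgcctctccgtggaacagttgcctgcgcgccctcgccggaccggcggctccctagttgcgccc
FOXD3-AS1, chr1:63322409-63322708, minus strand: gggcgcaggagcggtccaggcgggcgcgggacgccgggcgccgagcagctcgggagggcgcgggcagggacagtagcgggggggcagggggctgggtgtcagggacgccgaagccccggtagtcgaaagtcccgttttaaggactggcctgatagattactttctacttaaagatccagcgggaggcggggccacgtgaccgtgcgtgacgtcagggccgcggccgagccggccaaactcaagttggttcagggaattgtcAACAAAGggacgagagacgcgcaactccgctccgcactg
FOXD3, chr1:63322317-63322616, plus strand: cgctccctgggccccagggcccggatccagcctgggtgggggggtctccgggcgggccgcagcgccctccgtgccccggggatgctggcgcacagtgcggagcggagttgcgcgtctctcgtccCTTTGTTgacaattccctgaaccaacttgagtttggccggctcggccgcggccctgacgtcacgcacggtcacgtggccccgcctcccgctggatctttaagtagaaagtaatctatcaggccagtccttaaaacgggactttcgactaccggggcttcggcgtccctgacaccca

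The FOXD3 and FOXD3-AS1 windows share 208 bases, and the 1 match, AACAAAG read on the FOXD3-AS1 strand and CTTTGTT on the FOXD3 strand, lies in the shared stretch. The WNT5A windows share 189 bases and hold no match, and the GATA6 windows do not overlap and hold none either. RefSeq windows were found for 131 of the 210 antisense RNAs, 157 windows in all, and 18 (11.5%) held a match, against 13.8% of all 35116 windows in the RefSeq table. A match was held by 2 of 6 windows of antisense RNAs that rose, 2 of 14 that fell and 14 of 137 not called. These letters are a description of the window and draw nothing about binding. The antisense windows were rich in G and C, at a median of 63.7% against 58.7% for all windows. Windows of both partners were found for 115 pairs, and in 35 they overlapped, including 4 of the 11 called antisense RNAs with both windows.

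Other antisense RNAs of developmental regulators were lower in IWP2. HOXB-AS1 and HOXB-AS3 lie among the HOXB genes, which give cells their position along the body axis, and both were listed at 0 in the 2 IWP2 samples. HOXB-AS1 stood at 2.49 and 3.75 FPKM in DMSO (adjusted p = 0.00437 in limma) and HOXB-AS3 at 3.45 and 2.15 FPKM (adjusted p = 0.00624, and from 0.0138 to 0.0612 with 1 library left out, above the threshold without either IWP2 library). No single gene is called HOXB, so the neighbours were read instead. HOXB6 went from 38.9 and 51.7 to 0.116 and 0.263 FPKM, HOXB2 from 15.8 and 21.2 to 0.32 and 0.493 FPKM, and HOXB9 from 7.80 and 10.5 to 0.869 and 0.79 FPKM. All 7 HOXB genes past the level rule, HOXB2, HOXB3, HOXB5, HOXB6, HOXB7, HOXB8 and HOXB9, were called lower, beside 8.99% of all rows. Each was under 1 FPKM in both IWP2 samples, so it passed the rule through the DMSO samples alone and had to differ. Exons on the opposite strand cover 29.6% of the exonic bases of HOXB-AS1 and 30.1% of those of HOXB-AS3.

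GATA3-AS1, whose partner GATA3 marks trophoblast, amnion and T cells, went from 5.47 and 6.02 to 2.28 and 3.51 FPKM. It was called by a narrow margin (log2 fold change -0.81, adjusted p = 0.0474 in limma), and without 1 library, whichever it was, its adjusted p lay from 0.0771 to 0.195. GATA3 itself stood at 39.7 and 43.7 FPKM in DMSO and at 34.6 and 37.7 FPKM in IWP2 (adjusted p = 0.238). FZD10-AS1, beside the Wnt receptor gene FZD10, went from 1.59 and 2.13 to 0.302 and 0.0935 FPKM (adjusted p = 0.0156, and above the threshold without DMSO replicate 2, IWP2 replicate 1 or IWP2 replicate 2, at up to 0.111). FZD10 was under the level rule, between 0.406 and 0.649 FPKM in all samples. JHDM1D-AS1 fell from 2.69 and 2.59 to 1.38 and 1.08 FPKM (adjusted p = 0.0419, from 0.106 to 0.221 with 1 library left out). JHDM1D is listed by RefSeq as a synonym of KDM7A, a histone demethylase gene, which went from 9.48 and 8.64 to 4.07 and 2.71 FPKM (adjusted p = 0.0133).

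Of a list of 44 antisense RNAs of developmental regulators, 7 had no row in the table, 26 had a row that was not a member and 11 were members. Among the 26, EVX1-AS was past the same level, but its symbol has no number. Of these 11, 1 rose, 6 fell and 4 were not called, beside 7.23% higher and 8.99% lower among all rows. The median log2 fold change was -0.81, beside -0.02 over all rows. Of the 6 that fell, HOXB-AS1, HOXB-AS3 and FZD10-AS1 passed the level rule through the DMSO samples alone and had to differ. The list was chosen with earlier results of these data known, so these counts only describe it. The 4 not called were GATA2-AS1 (4.47, 4.73, 3.36 and 4.28 FPKM in DMSO and then IWP2), FOXN3-AS1, KDM4A-AS1 and ZEB1-AS1. Both IWP2 values of GATA2-AS1 lay below both DMSO values, yet its adjusted p was 0.394. ZEB1-AS1 overlapped between groups, at 2.47 and 3.29 against 1.75 and 2.53 FPKM, while ZEB1, a driver of the epithelial to mesenchymal transition, went from 1.70 and 2.88 to 0.28 and 0.664 FPKM (adjusted p = 0.0381 in limma). Both IWP2 values of ZEB1 were under 1 FPKM, so ZEB1 passed the level rule through the DMSO samples alone and had to differ.

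**Figure D2:**
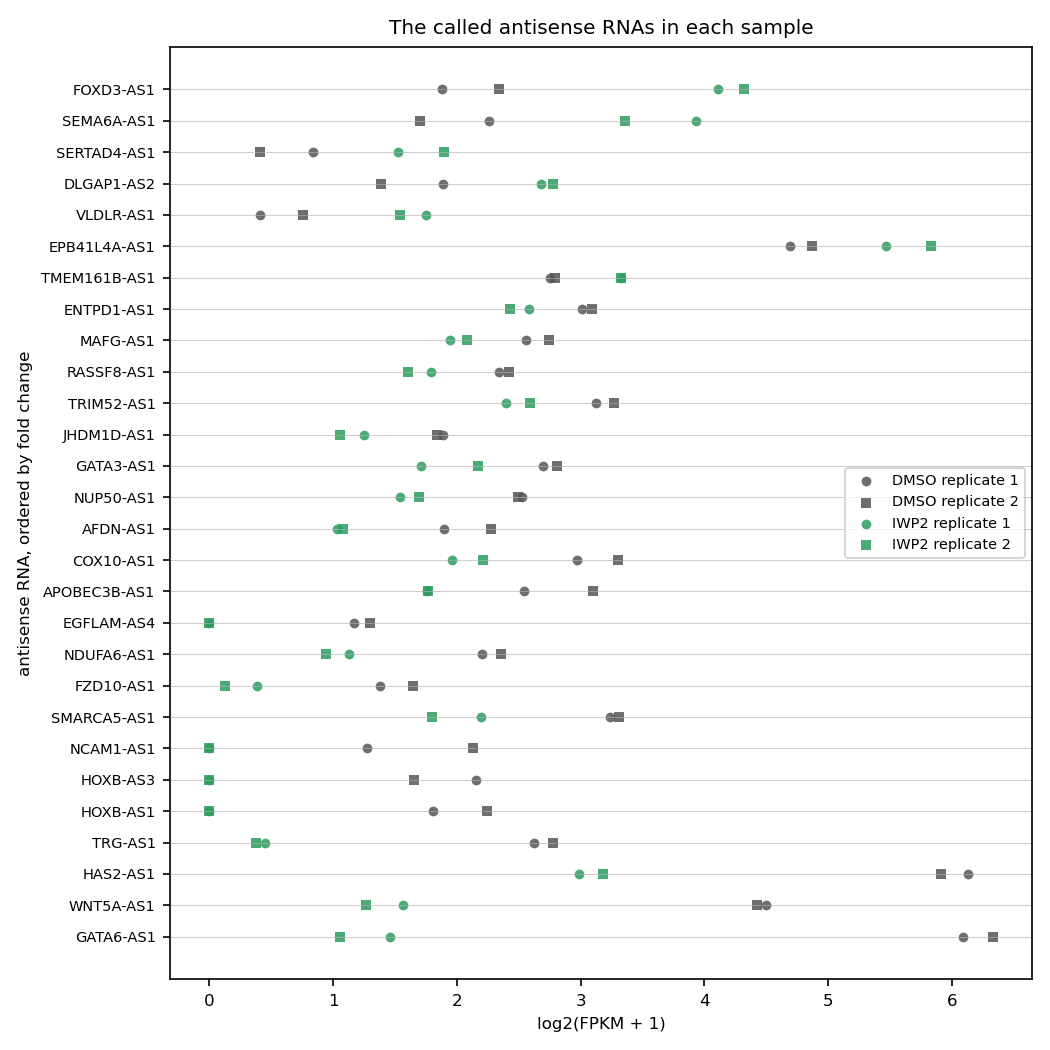
Level of the 28 called antisense RNAs in each sample as log2(FPKM + 1) on the x axis, ordered on the y axis by fold change. Grey marks are DMSO and green marks IWP2, circles replicate 1 and squares replicate 2; the 7 increases stand at the top and HOXB-AS1, HOXB-AS3, NCAM1-AS1 and EGFLAM-AS4 lie at 0 in both IWP2 samples.

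SEMA6A-AS1 (GRCh38 chr5:116447547-116508276, plus strand) lies inside SEMA6A, a transmembrane semaphorin that guides migrating cells and axons. SEMA6A-AS1 rose from 3.80 and 2.25 to 14.3 and 9.27 FPKM (log2 fold change 1.67, SE 0.27, adjusted p = 0.0158 in limma, up to 0.102 without IWP2 replicate 1 and above the threshold without DMSO replicate 2 or IWP2 replicate 2). SEMA6A rose by 1.67 on the same scale, from 71.4 and 46.3 to 196 and 176 FPKM. NCAM1-AS1, inside the gene of the adhesion molecule NCAM1, stood at 1.41 and 3.37 FPKM in DMSO and was listed at 0 in both IWP2 samples (adjusted p = 0.0219, and 0.129 without either IWP2 library). NCAM1 went from 16.3 and 21.7 to 0.987 and 0.564 FPKM. EGFLAM-AS4 was likewise listed at 0 in IWP2, after 1.25 and 1.46 FPKM in DMSO (adjusted p = 0.0117, up to 0.0894 without IWP2 replicate 2 and 0.085 without IWP2 replicate 1), and its partner EGFLAM, a matrix protein gene, fell by 1.72 on the log2 scale.

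AFDN-AS1 starts 213 bases from AFDN, which encodes the junction protein afadin. It went from 2.73 and 3.84 to 1.04 and 1.11 FPKM (log2 fold change -1.03, adjusted p = 0.0216 in limma, up to 0.135 without IWP2 replicate 1 and above the threshold also without DMSO replicate 2 or IWP2 replicate 2), while AFDN went from 107 and 122 to 85.1 and 75.5 FPKM, a log2 fold change of -0.51. VLDLR-AS1 overlaps the start of VLDLR, a lipoprotein and reelin receptor gene, and rose from 0.329 and 0.691 to 2.37 and 1.90 FPKM (adjusted p = 0.0256, up to 0.162 without IWP2 replicate 1 and above the threshold also without DMSO replicate 1 or IWP2 replicate 2). VLDLR rose with it, from 10.7 and 11.2 to 30.9 and 29.7 FPKM. SERTAD4-AS1 rose from 0.783 and 0.326 to 1.88 and 2.72 FPKM (adjusted p = 0.0351, up to 0.203 without IWP2 replicate 2 and above the threshold also without DMSO replicate 2 or IWP2 replicate 1), and SERTAD4 from 1.29 and 1.75 to 4.69 and 5.40 FPKM. VLDLR-AS1 and SERTAD4-AS1 reached 1 FPKM in the IWP2 samples alone.

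SMARCA5-AS1 (GRCh38 chr4:143513472-143514635, minus strand) went from 8.43 and 8.92 to 3.57 and 2.48 FPKM (log2 fold change -1.28, SE 0.17, adjusted p = 0.00896 in limma). SMARCA5, a chromatin remodelling ATPase, stood at 27.9 and 35.3 FPKM in DMSO and at 29.2 and 28.4 FPKM in IWP2 (log2 fold change -0.12, adjusted p = 0.593). Exons of SMARCA5 cover 66.7% of the exonic bases of SMARCA5-AS1. The library kit named by the sources does not mark strand, so reads from these bases cannot be assigned to either gene. The decrease of SMARCA5-AS1 had an adjusted p of 0.0513 without DMSO replicate 2 and 0.0598 without IWP2 replicate 2.

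NDUFA6-AS1 starts 24 bases from NDUFA6, a subunit gene of respiratory complex I, and went from 3.62 and 4.12 to 1.18 and 0.92 FPKM, a log2 fold change of -1.25 against -0.45 for NDUFA6 (91.0 and 88.9 to 63.6 and 68.1 FPKM). Its adjusted p was 0.00825, and 0.059 and 0.0767 without IWP2 replicate 1 and IWP2 replicate 2. COX10-AS1 and COX10, an enzyme of heme A synthesis, start 1 base apart. COX10-AS1 went from 6.83 and 8.84 to 2.89 and 3.62 FPKM (adjusted p = 0.0172, up to 0.12 without IWP2 replicate 1 and above the threshold also without DMSO replicate 2 or IWP2 replicate 2), while COX10 stood at 8.40 and 10.1 FPKM and then at 7.03 and 9.04 FPKM. APOBEC3B-AS1 went from 4.83 and 7.55 to 2.37 and 2.39 FPKM (adjusted p = 0.0285, up to 0.155 without IWP2 replicate 1 and above the threshold also without DMSO replicate 2 or IWP2 replicate 2), and APOBEC3B, a cytidine deaminase gene, was not called.

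Of the remaining decreases, NUP50-AS1 (nucleoporin partner) fell by 0.89 on the log2 scale, TRIM52-AS1 by 0.71, RASSF8-AS1 by 0.68, MAFG-AS1 (partner a small Maf transcription factor) by 0.64 and ENTPD1-AS1 (partner the ectonucleotidase CD39) by 0.55, and each lost its call whichever library was left out, with adjusted p up to 0.117, 0.164, 0.207, 0.221 and 0.243. None of their 5 partners was called. MAFG-AS1, ENTPD1-AS1 and TMEM161B-AS1 were outside the rule for named genes and were added after their values were seen. TRG-AS1, in the T cell receptor gamma locus, has no partner row. It went from 5.16 and 5.85 to 0.365 and 0.297 FPKM, a fall of 2.29 on the log2 scale (adjusted p = 0.00137 in limma), and was called under every alternative tried. Both IWP2 values of TRG-AS1 were under 1 FPKM, so it passed the level rule through the DMSO samples alone and had to differ.

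The remaining increases were DLGAP1-AS2, EPB41L4A-AS1 and TMEM161B-AS1. DLGAP1-AS2 rose from 2.70 and 1.62 to 5.40 and 5.85 FPKM (adjusted p = 0.0237, up to 0.154 without IWP2 replicate 2 and above the threshold also without DMSO replicate 2 or IWP2 replicate 1). DLGAP1, a synaptic scaffold gene that spans DLGAP1-AS2, had overlapping values, at 2.35 and 1.87 against 2.91 and 0.98 FPKM. EPB41L4A-AS1 rose from 24.8 and 28.2 to 43.3 and 56.1 FPKM (log2 fold change 0.87, adjusted p = 0.018, up to 0.0926 without IWP2 replicate 2 and above the threshold also without either DMSO library). TMEM161B-AS1 rose from 5.75 and 5.94 to 9.06 and 9.01 FPKM (adjusted p = 0.0305, from 0.0828 to 0.18 with 1 library left out). EPB41L4A-AS1 and TMEM161B-AS1 are 2 of the 4 members with an annotated small nucleolar RNA inside them. The other two, LRRC75A-AS1 and UBA6-AS1, were not called. Among all rows 7.23% were called higher.

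The antisense RNA with the highest mean level was LRRC75A-AS1. LRRC75A-AS1 (GRCh38 chr17:16438822-16478678, plus strand), which carries 3 small nucleolar RNAs, stood at 542, 559, 578 and 621 FPKM, and its partner LRRC75A between 1.35 and 2.15 FPKM. OIP5-AS1, a long RNA known for binding microRNAs, stood at 58.2, 61.9, 62.0 and 57.9 FPKM. Neither was called, with adjusted p of 0.396 and 0.992. Of the 10 with the highest mean, HAS2-AS1 and GATA6-AS1 fell and EPB41L4A-AS1 rose, so 3 of 10 were called, beside 16.2% of all rows. The other seven, which include CCDC144NL-AS1, FGD5-AS1, NCBP2-AS2, THUMPD3-AS1 and THAP9-AS1, had log2 fold changes between -0.05 and 0.12. For CCDC144NL-AS1, OIP5-AS1 and THUMPD3-AS1 the sign of this small change turned when the columns were scaled to the same median.

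The largest changes that missed the threshold were those of CYP1B1-AS1 and B3GALT5-AS1. CYP1B1-AS1 went from 2.33 and 3.02 to 1.06 and 0.14 FPKM (log2 fold change -1.26, SE 0.32, adjusted p = 0.0539), while CYP1B1, a cytochrome P450 gene, fell from 14.3 and 13.8 to 2.39 and 2.24 FPKM (adjusted p = 0.000667). B3GALT5-AS1 stood at 0.345 and 0.918 FPKM in DMSO and at 1.82 and 2.49 FPKM in IWP2 (log2 fold change 0.97, adjusted p = 0.0541). TNFRSF10A-AS1, NAV2-AS1 and SH3BP5-AS1 followed, with log2 fold changes of -0.77, 0.74 and -0.74 and adjusted p of 0.178, 0.216 and 0.0601. Groups did not overlap for any of these 5, which were picked by the size of their change. B3GALT5-AS1 reached 1 FPKM in the IWP2 samples alone and SH3BP5-AS1 in the DMSO samples alone, so both had to differ. Among all rows tested, 32% had DMSO above IWP2 without overlap and 28.1% had IWP2 above DMSO.

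Sense partners were compared as context. A row of the partner's symbol existed for 205 of the 210 antisense RNAs, 201 distinct genes, all of them protein coding. In 53 pairs the antisense mean was above the sense mean, and the median ratio of sense to antisense was 4.46 on the FPKM scale, which is per length. The pairs FOXD3, LRRC75A, OIP5 and FGD5 had the antisense RNA on top, and GATA6, HAS2 and WNT5A the sense gene.

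**Figure D3:**
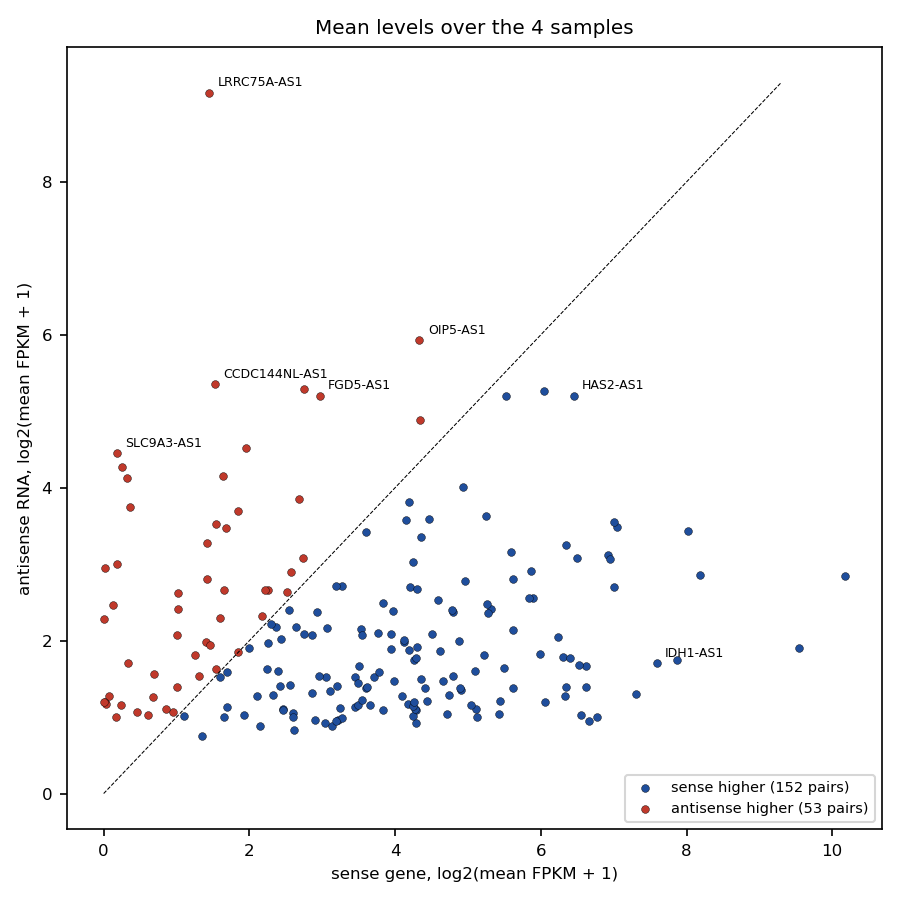
Mean level over the 4 samples of the sense gene on the x axis and of its antisense RNA on the y axis, both as log2(mean FPKM + 1), for 205 pairs. The dashed line marks equal levels; 53 pairs lie above it, with LRRC75A-AS1 at the top, and most antisense RNAs lie below it.

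Of the 180 distinct partners past the level rule, 14 rose and 19 fell, which is 18.3% called beside 16.2% of all rows. With columns scaled to the same median this split became 22 higher and 17 lower. In 11 of the 184 pairs with both sides tested, both were called and in the same direction, 4 higher (FOXD3, SEMA6A, VLDLR and SERTAD4) and 7 lower (GATA6, HAS2, WNT5A, NCAM1, EGFLAM, AFDN and NDUFA6). Among all rows 7.23% were called higher and 8.99% lower. No pair was called in opposite directions. Some of the 11 pairs had a side that passed the level rule through 1 group alone and so had to differ. Through IWP2 alone passed VLDLR-AS1, SERTAD4-AS1 and FOXD3, and through DMSO alone NCAM1-AS1, NCAM1 and EGFLAM-AS4. The antisense RNA alone was called in 12 pairs, 10 of them with the same sign in the partner, and the sense gene alone in 22 pairs, 15 with the same sign. The count of pairs with both called was 8 without DMSO replicate 1, 7 without DMSO replicate 2 and 4 without either IWP2 library. The count of called partners was 24 without DMSO replicate 1, 18 without DMSO replicate 2 and 12 without either IWP2 library.

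The sense gene alone was called in pairs such as FGD5, whose product is an exchange factor of endothelial cells. FGD5 rose from 4.36 and 4.09 to 9.85 and 8.89 FPKM (log2 fold change 0.99, SE 0.13, adjusted p = 0.00762 in limma, and 0.085 and 0.066 without IWP2 replicate 1 and IWP2 replicate 2), while FGD5-AS1 stayed at 36.1 and 35.5 against 36.4 and 35.7 FPKM (log2 fold change 0.01, SE 0.08, adjusted p = 0.954). FOXN3, a forkhead factor gene, rose from 20.6 and 20.0 to 43.5 and 32.1 FPKM (adjusted p = 0.0219), with FOXN3-AS1 between 1.30 and 1.79 FPKM in all samples. Without DMSO replicate 1, DMSO replicate 2 or IWP2 replicate 1, FOXN3 had an adjusted p of 0.0807, 0.093 and 0.0885. Pairs with opposite signs were noted after their values were seen. TNRC6C, a gene of microRNA silencing, fell from 4.95 and 3.98 to 1.43 and 1.56 FPKM, while TNRC6C-AS1 stood at 2.14 and 2.56 and then at 2.96 and 3.28 FPKM (adjusted p = 0.262). ARRDC1 rose from 12.2 and 11.5 to 20.4 and 25.2 FPKM, while ARRDC1-AS1 stood at 13.6 and 14.7 and then at 11.5 and 12.5 FPKM (adjusted p = 0.243). In both pairs the groups did not overlap on either side, beside 32% of all rows with DMSO above and 28.1% with IWP2 above.

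**Figure D4:**
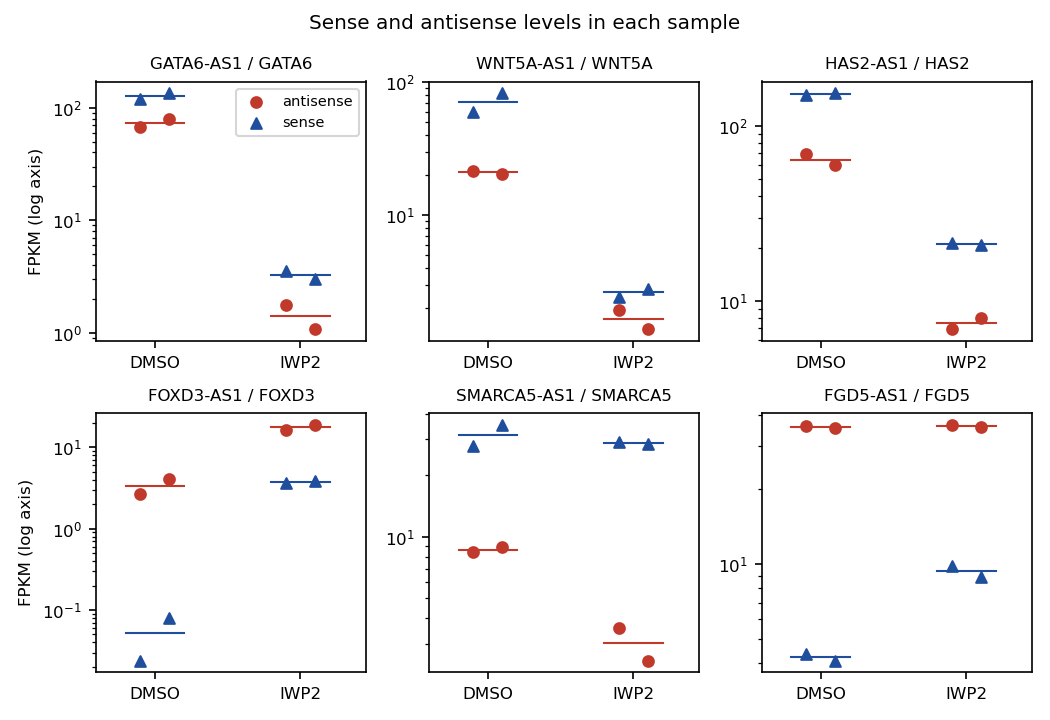
Level in each sample of 6 antisense RNAs (red circles) and their sense partners (blue triangles) in FPKM on a log axis, with a short line at each group mean. Both sides move together for GATA6, WNT5A, HAS2 and FOXD3. For SMARCA5 the antisense RNA alone was called, and for FGD5 the sense gene alone.

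Across the 184 pairs the log2 fold changes of sense and antisense had a Pearson r of 0.79 and a Spearman rho of 0.47, and 60.3% had the same sign. Without the GATA6, WNT5A, HAS2, FOXD3 and SEMA6A pairs r was 0.55 and rho 0.42. The NCAM1 pair stayed in, although NCAM1-AS1 changed slightly more, at -1.70, than SEMA6A-AS1, at 1.67. These are descriptions, since the pairs share the 4 libraries. The library kit named by the sources does not mark strand, so reads from exons that overlap on opposite strands cannot be told apart. Overlap could be read from GENCODE 29 for the 160 pairs whose gene models match it. In 110 pairs with overlapping exons r was 0.66 and rho 0.46, and in 50 pairs with none r was 0.43 and rho 0.24. GATA6-AS1 and GATA6, whose spans do not overlap in the table, are in neither set because the model of GATA6-AS1 there differs from GENCODE 29.

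**Figure D5:**
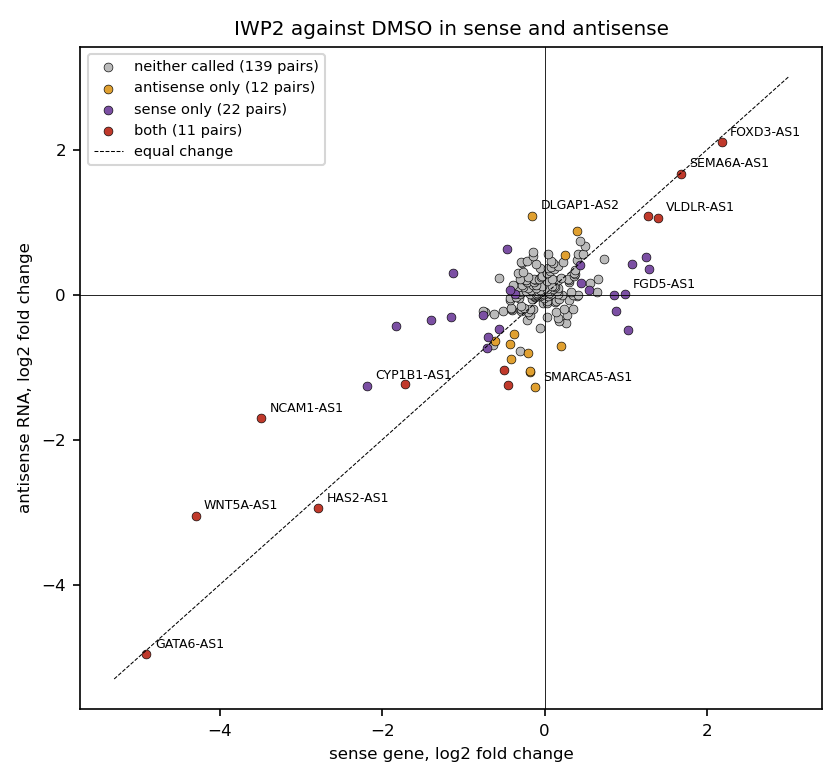
Log2 fold change of IWP2 over DMSO of the sense gene on the x axis against that of its antisense RNA on the y axis for 184 pairs, both on log2(FPKM + 1). Colours give which side was called, and the dashed line marks equal change. The 11 pairs called on both sides lie in the lower left and upper right quadrants, some of them near the centre.

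Pairs were grouped by the position of the antisense RNA to its partner. In 35 pairs both ran away from each other without overlap, with starts a median of 120 bases apart, and 8 of these antisense RNAs fell and 0 rose (22.9% called, beside 16.2% of all rows, 7.23% higher and 8.99% lower). Of the other three kinds, pairs overlapping at their 5′ ends numbered 76, with 4 increases and 3 decreases (9.21%). Pairs with one gene inside the other numbered 52, with 3 increases and 4 decreases (13.5%), and pairs overlapping at their 3′ ends numbered 40, with 0 increases and 2 decreases (5%). The divergent decreases were GATA6-AS1, FZD10-AS1, COX10-AS1, AFDN-AS1, NUP50-AS1, GATA3-AS1, TRIM52-AS1 and MAFG-AS1, and in 2 of them, GATA6-AS1 and AFDN-AS1, the partner was called lower as well. Among these decreases GATA6-AS1 alone was called whichever library was left out, and FZD10-AS1 passed the level rule through the DMSO samples alone. Differences between these kinds of pair were not tested.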

How the data were processed

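RNA was sequenced from 2 DMSO and 2 IWP2 samples of H1 cells with a TruSeq kit. The values of the 1 table the authors deposited were read as FPKM, corrected for transcript length and library size, but neither the labels nor the methods name the unit. They are not whole numbers, and column sums lay between 616418 and 653850. Columns marked with a minus sign for IWP2 were taken as DMSO, and their replicate numbers are those of the column names. The submitters' processing notes name BWA, Bowtie, RSEM and hg19 without roles or versions, yet 95.3% of the table's 58365 rows carry coordinates identical to GENCODE 29 on GRCh38, so the table's coordinates are given as GRCh38, counted from 1. Read depth is unknown, so no counting interval could be given, and a value of 0 is described as listed at 0.

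Rows with at least 1 FPKM in at least 2 samples (14278) were converted to log2(FPKM + 1) and fitted with limma 3.58.1 in R 4.3.3 (lmFit and eBayes with trend), with no block, and called at a Benjamini-Hochberg adjusted p under 0.05. The script was tested on simulated data. Partners were matched by exact symbol, with the longest row used where a symbol had several. Named were the 25 called members of largest change, the 10 most abundant, the 5 largest changes not called, members of the developmental list, those beside the level threshold, and their partners. Members and lists were chosen with earlier results of these data known. Promoters came from RefSeq (GRCh38.p14) by symbol. Alternatives were another pseudocount, other filters, scaling, quantile normalization, no trend, the replicate number as a block, and leaving out each sample. The 2 replicates of a group correlated at 0.98 across rows on the log2 scale, and samples of different groups between 0.934 and 0.942. No column of the table was left out.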

Additional observations from a re-analysis of the deposited data

How the results depend on the processing

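With no filter on low values 381 rows, 5 antisense RNAs, 8 sense partners and 3 pairs with both sides in the same direction were called, against 2316, 28, 33 and 11, and 23 of the 28 lost their call. The cause was not tested. Leaving out 1 library leaves a lone sample that is assumed to vary like the other group, and gave 569 to 1656 rows, 6 to 19 antisense RNAs, 12 to 24 partners, 4 to 8 pairs and a median log2 fold change of the antisense RNAs from 0.0083 to 0.0701. That median, 0.0399, was 0.0779 with columns scaled to the same median and 0.0611 after quantile normalization. Calls held under every alternative for 4 antisense RNAs, GATA6-AS1, HAS2-AS1, WNT5A-AS1 and TRG-AS1. TRG-AS1 passed the level rule through the DMSO samples alone and so had to differ. With a pseudocount of 0.1, a mean filter, scaling, quantile normalization or no trend, 25 to 33 antisense RNAs were called.

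With the replicate number as a block, 2238 rows, 25 antisense RNAs (24 of the 28), 34 partners and 12 pairs were called. The labels do not say that a number marks a shared culture, and the deviations of same-numbered samples correlated at 0.2045 over only 2 pairs, so the block is an alternative alone.

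The sign of changes that were not called turned with scaling for CCDC144NL-AS1 (0.0154), FOXN3-AS1 (0.0277), OIP5-AS1 (0.0614) and THUMPD3-AS1 (0.0228), and after quantile normalization for OIP5-AS1 (0.0316) and THUMPD3-AS1 (0.0046). With 1 library left out, changes near 0 that were not called turned as well, ranging from -0.1865 to 0.092 for CCDC144NL-AS1, -0.6466 to 0.3335 for DLGAP1, -0.0045 to 0.0236 for FGD5-AS1, -0.1488 to 0.1267 for FOXN3-AS1, -0.0175 to 0.2603 for KDM4A, -0.2188 to 0.0243 for KDM4A-AS1, -0.0726 to 0.2641 for LRRC75A, -0.0048 to 0.1118 for NCBP2, -0.1079 to 0.1444 for NCBP2-AS2, -0.0507 to 0.0471 for OIP5-AS1, -0.2866 to 0.045 for SMARCA5, -0.1867 to 0.1082 for THUMPD3-AS1, -0.0627 to 0.3982 for TMEM44-AS1 and -0.6914 to 0.0768 for TNFRSF10A. The cause was not tested. Depth is unknown, and with 2 samples a group small changes of weak RNAs could not be resolved.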

Other observations

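Rows whose symbol ends in -AS with no number were outside the rule. There were 25, and 4 were past the same level. EVX1-AS stood at 16.2 and 12.0 FPKM in DMSO and at 0.258 and 0 FPKM in IWP2 (log2 fold change -3.74, SE 0.21, adjusted p = 0.000687 in limma). EVX1, a homeobox factor of the primitive streak, went from 34.6 and 33.0 to 0.559 and 0.493 FPKM. EVX1-AS and EVX1 were under 1 FPKM in both IWP2 samples, so each passed the level rule through the DMSO samples alone and had to differ. BACE1-AS stood at 3.12 and 2.65 FPKM in DMSO and 1.92 and 2.82 FPKM in IWP2 (adjusted p = 0.501), while BACE1, the beta-secretase gene, fell from 20.7 and 24.4 to 6.69 and 6.50 FPKM. PINK1-AS lay between 1.35 and 1.58 FPKM in all samples, while PINK1, a kinase of mitochondrial quality control, rose from 20.2 and 19.7 to 32.7 and 35.1 FPKM. MKLN1-AS and MKLN1 were not called.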
